A study of Mus musculus with 32 samples.

Results

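The 10 genes described here are the transcription factor genes *Cebpa*, *Cebpb*, *Cebpd*, *Cebpe*, *Spi1*, *Gfi1*, *Gfi1b*, *Klf4*, *Egr1* and *Id2*, which act in the granulocyte and monocyte lineages. They were taken by name from the GENCODE M21 annotation of the mm10 mouse genome, 10 of the 21938 protein-coding genes on chromosomes 1 to 19, X and Y. For each gene, peaks were collected in the promoter window, from 1 kb upstream to 500 bp downstream of any annotated transcription start site (TSS), and in the gene with 50 kb on either side. The peaks come from ChIP-seq of H3K4me3, H3K9ac, H3K27ac and H3K4me1 in primary *MLL-AF9* leukemias. Both genotypes carried *Kat2a* Flox/Flox alleles and received pIpC, the inducer of the interferon-responsive Mx1-Cre, which was absent in *Kat2a* WT (Mx1-Cre -/-) and present in one copy in *Kat2a* KO (Mx1-Cre +/-). Lineage-depleted marrow of both was transduced by retrovirus with *MLL-AF9* and transplanted into lethally irradiated recipients. The terminal bone marrow of 5 WT and 4 KO recipients was pooled and each pool was immunoprecipitated in 2 replicates per mark, which gives 16 libraries. Replicates therefore share their animals and their spread leaves out the differences between leukemias. Each ChIP of H3K4me3 and H3K9ac used 5000000 cells, and each of H3K27ac and H3K4me1 used 500000. Total marrow was used, so less of a mark in every cell and fewer cells that carry it cannot be told apart.

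As background, *Cebpa*, *Cebpb*, *Cebpd* and *Cebpe* encode C/EBP proteins, which bind DNA as leucine zipper dimers. C/EBPα commits progenitors to the granulocyte and monocyte lineages, C/EBPε acts late in granulocytes, and C/EBPβ and C/EBPδ respond to inflammatory signals. *Spi1* encodes PU.1, an ETS factor needed for macrophages and B cells, which acts with C/EBPα at many myeloid enhancers. Gfi1 and Gfi1b are zinc finger repressors, the first in granulocytes and the second in erythroid cells and megakaryocytes. Klf4 and Egr1 favour the monocyte fate, and Id2 binds E proteins and keeps them off DNA. H3K4me3 marks active or poised promoters, H3K4me1 marks enhancers, H3K27ac marks active elements of both kinds, and H3K9ac, the mark deposited by Kat2a, lies mainly at active promoters.

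Sequences are shown for promoters picked by their marks and for the elements at known enhancer distances where peaks were found. The promoters are the bases before the RefSeq start site on the strand of the gene (GRCm38.p6, the same chromosome sequences as mm10), with exonic bases left out. The RefSeq table held promoters of 6 of the 10 genes and did not list *Cebpd*, *Cebpe*, *Spi1* or *Egr1*. The *Cebpa* promoter (chr7:35119043-35119292, plus strand) ranked lower for H3K4me3 in KO, with 2 libraries almost level. The *Klf4* promoter (chr4:55532476-55532709, minus strand) alone of the 10 ranked higher for H3K9ac in KO. Neither difference held under every way of ranking, as given below. The *Cebpb* promoter (chr2:167688665-167688914, plus strand) carried H3K9ac with little H3K4me3 up to 500 bp downstream, and its H3K4me3 began further into the gene. Capitals mark matches on either strand to any of 5 motifs, which were searched by their letters. These are TTGCNNAA for C/EBP factors, GAGGAA for PU.1 and other ETS factors, CCAAT for NF-Y, CACGTG for the factors that bind an E-box and TATAAA for the TATA box.
*Cebpa* promoter: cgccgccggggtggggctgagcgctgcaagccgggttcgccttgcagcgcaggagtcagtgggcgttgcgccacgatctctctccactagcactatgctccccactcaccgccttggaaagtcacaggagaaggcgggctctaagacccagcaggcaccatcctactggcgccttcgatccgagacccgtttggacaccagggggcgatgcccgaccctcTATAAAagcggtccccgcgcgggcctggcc
*Klf4* promoter: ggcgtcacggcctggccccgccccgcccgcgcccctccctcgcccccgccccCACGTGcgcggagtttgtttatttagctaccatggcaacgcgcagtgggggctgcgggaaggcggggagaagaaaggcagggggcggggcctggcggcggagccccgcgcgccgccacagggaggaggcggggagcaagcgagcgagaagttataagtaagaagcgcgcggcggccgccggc
*Cebpb* promoter: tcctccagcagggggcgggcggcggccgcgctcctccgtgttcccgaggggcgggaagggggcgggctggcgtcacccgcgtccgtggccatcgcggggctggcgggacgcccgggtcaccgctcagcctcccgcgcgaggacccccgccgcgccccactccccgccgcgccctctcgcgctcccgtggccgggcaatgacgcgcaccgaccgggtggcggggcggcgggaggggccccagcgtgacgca

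The *Cebpa* promoter held TATAAA from 30 bases before the start site, letters found in 12.4% of the 32851 RefSeq promoters over the same 250 bases. The *Klf4* promoter held CACGTG, found in 6.02% of them. No motif matched in the *Cebpb* promoter, the richest of these in G and C at 81.6%, against 73.9% for *Klf4* and 66.4% for *Cebpa*. The elements are 201 bases of the plus strand around the H3K27ac summit of WT replicate 2, or of KO replicate 2 where WT had no peak. They lie 37.7 kb downstream of the *Cebpa* start site (chr7:35156949-35157149, intergenic), 5.57 kb downstream of the *Cebpe* start site (chr14:54706507-54706707, intergenic) and at −13.4 kb from the start site of the principal *Spi1* transcript (chr2:91082567-91082767, in an intron of a longer *Spi1* transcript).
*Cebpa* +37 kb element: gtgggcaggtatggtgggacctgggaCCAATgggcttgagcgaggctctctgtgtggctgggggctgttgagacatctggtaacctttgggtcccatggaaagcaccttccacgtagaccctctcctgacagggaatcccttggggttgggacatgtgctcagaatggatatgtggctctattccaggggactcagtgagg
*Cebpe* +6 kb element: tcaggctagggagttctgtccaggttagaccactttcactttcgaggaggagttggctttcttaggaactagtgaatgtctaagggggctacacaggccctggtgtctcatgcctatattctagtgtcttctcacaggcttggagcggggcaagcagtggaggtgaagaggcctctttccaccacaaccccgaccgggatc
*Spi1* -14 kb element: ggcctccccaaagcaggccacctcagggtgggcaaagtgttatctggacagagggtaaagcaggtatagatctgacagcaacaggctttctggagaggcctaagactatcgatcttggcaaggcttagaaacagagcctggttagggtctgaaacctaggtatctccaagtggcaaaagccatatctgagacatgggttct

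The *Cebpa* element held CCAAT, which was found in 20.6% of the 16469 non-promoter H3K27ac summit windows of WT replicate 2. None of the 5 motifs was in the *Cebpe* and *Spi1* windows, which says only that these letters are not within 100 bases of those summits.

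The depth of the libraries is unknown because the lists hold no read counts, and the absence of a peak therefore has no detection limit. H3K9ac lists held 27657 to 33605 peaks and H3K4me3 lists 15685 to 23297 peaks. H3K9ac peaks covered 26.8 and 28.9 Mb in WT (replicates 1 and 2) and 20.7 and 24.7 Mb in KO, so the KO lists were the shorter ones. The replicate 1 lists of H3K27ac and H3K4me1 held peaks with a median width of 48 or 49 bp, and at most 0.05% of them reached a q-value of 0.05. At the 10 promoters, these lists held a single peak, at *Cebpd* in WT H3K27ac, so H3K27ac and H3K4me1 are given from replicate 2 alone, which leaves 1 library per genotype and no test. Myeloid identity was checked on marker genes: H3K9ac lay at the promoters of 8 to 10 of 10 myeloid genes per library, at 1 of 5 B cell genes, at 1 of 5 T cell genes and at 0 to 3 of 5 erythroid genes, with no such peak at *Pax5*, *Cd3e* or *Gata1* in any library. *Kat2a* itself had an H3K9ac promoter peak with fold enrichments of 8.002 and 4.58 in WT against 7.48 and 11.8 in KO, which does not test the deletion, since a promoter peak does not show whether the floxed part is present.

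All 10 genes had a promoter H3K9ac peak in every one of the 4 H3K9ac libraries, as had 49.4% of protein-coding genes. H3K27ac was present at all 10 in both genotypes, against 44.3% of genes in WT and 49.8% in KO. H3K4me3 was found in both WT libraries at 8 of 10 promoters (48.4% of genes) and in both KO libraries at 8 of 10 (50% of genes), and in both genotypes *Cebpb* and *Gfi1b* were the exceptions. H3K4me1 peaks were listed at 4 of 10 promoters in WT, those of *Cebpb*, *Spi1*, *Gfi1b* and *Id2* (18.4% of genes). In KO they were listed at 8 of 10, all but *Cebpa* and *Cebpd* (37.2% of genes). The *Id2* peak in WT (MACS2 q = 0.33) and the *Gfi1* peak in KO (q = 0.057) did not reach a q-value of 0.05. Of all peaks in these H3K4me1 lists, 34.3% in WT and 83.6% in KO reached it. The KO H3K4me1 list covered 42.1 Mb and the WT list 11.5 Mb, and the part of this gap in the promoter counts was not tested.

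The study classed H3K4me3 promoters by their acetylation. Those with H3K4me3 and both acetylation marks included 8 of the 10 genes in WT (41.4% of genes) and the same 8 in KO (45.6% of genes). No member had H3K9ac without H3K27ac at an H3K4me3 promoter, neither in WT, where 5.44% of genes did, nor in KO, where 1.84% did. The same 8 promoters thus held both acetylation marks in both genotypes, with 1 H3K27ac library each, and *Cebpb* and *Gfi1b* were in neither class. Over all genes, 9078 had both marks at an H3K4me3 promoter in WT and 1193 had H3K9ac alone. In KO these numbers were 9994 and 404. Both marks together were thus the rule at H3K4me3 promoters with H3K9ac, and the counts of 8 and 0 are near this background. Of 24 other genes of myeloid transcription control (among them *Runx1*, *Irf8*, *Egr2* and *Rara*), all 24 had promoter H3K9ac in all 4 libraries, 0 were in the H3K9ac-only class in WT and 1 was in KO.

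To compare the genotypes, each gene was given a rank in each library, the percent of protein-coding genes with a smaller fold enrichment of their strongest promoter peak, with 0 for a gene without a peak. Fold enrichment here is the ratio of ChIP signal over local background that MACS2 reports at the peak summit. A gene was called when its 2 KO ranks lay wholly below or above its 2 WT ranks. The two-sided exact permutation test of 2 against 2 libraries cannot give a p under 0.33, so no gene could pass a threshold of 0.05. For H3K9ac, 2 of the 10 genes were lower in KO (8.44% of all genes were) and 1 was higher (8.41% of all genes). Among the 10837 genes with a peak in every library, a group to which all 10 belong, the shares were 14.9% and 16.1%, so the counts of 2 and 1 are near the background. The median difference in rank over the 10 genes was −0.083, beside 0.082 over those 10837 genes.

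**Figure D1:**
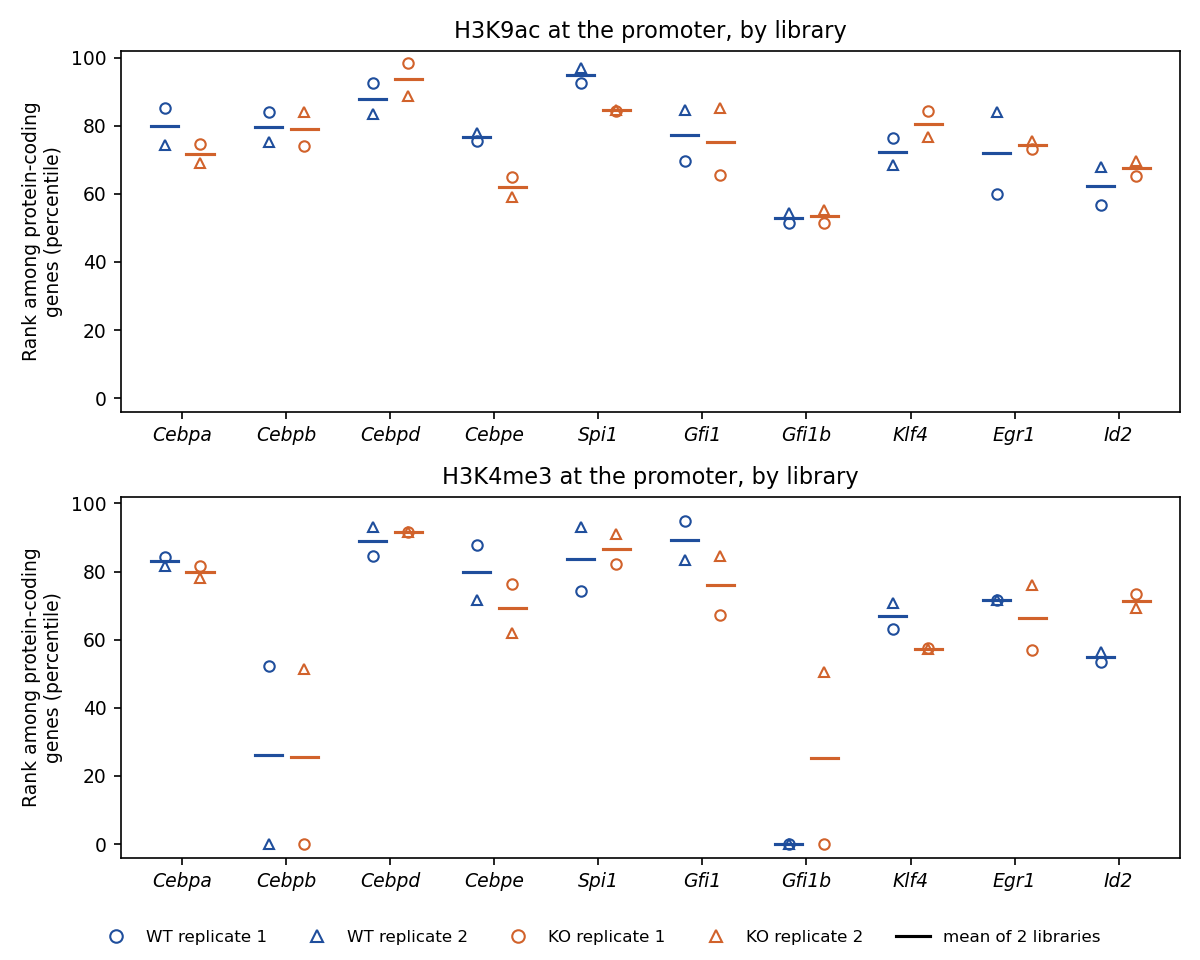
Promoter H3K9ac (top) and H3K4me3 (bottom) of the 10 genes, as the rank of the strongest promoter peak among protein-coding genes in percent (y axis), with WT in blue, KO in orange, circles for replicate 1, triangles for replicate 2 and bars for the mean of 2 libraries. The KO libraries lie below the WT libraries for *Cebpe* and *Spi1* H3K9ac and above them for *Klf4*, and *Id2* H3K4me3 lies above.

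*Cebpe* had H3K9ac ranks of 75.4 and 77.8 in WT and of 64.8 and 59.0 in KO. Both KO libraries were below both WT libraries, with a mean difference of −14.7 points (WT 76.6 ± 1.68, KO 61.9 ± 4.09, SD, n = 2, exact permutation p = 0.33). The fold enrichments behind them were 11.7 and 12.5 in WT against 6.95 and 6.72 in KO. H3K4me3 at *Cebpe* ranked at 87.9 and 71.7 in WT and at 76.4 and 62.0 in KO, and here the libraries overlapped. The H3K9ac difference was −50.8 points with peaks counted only where the summit lay in the window, and −9.35 points, with overlap, when genes were ranked by covered length.

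*Spi1* ranked at 92.6 and 96.9 in WT and at 84.4 and 84.5 in KO for H3K9ac, a mean difference of −10.3 points (WT 94.8 ± 3.05, KO 84.5 ± 0.058, SD, n = 2, exact permutation p = 0.33). The libraries did not overlap. Of all genes, 7.38% and 3.06% stood at or above *Spi1* in WT, and 15.6% and 15.5% in KO. The gene has 4 annotated start sites in 2 places, and the H3K9ac ranks of KO replicate 2 came from the other place than those of the remaining libraries. At the principal start site, the fold enrichments were 19.9 and 24.4 in WT against 13.1 and 15.2 in KO. At the most upstream start site, 13.7 kb before it, they were 11.9 and 19.5 in WT against 8.05 and 15.7 in KO, and with that site alone the ranks of the genotypes overlapped. Ranked by covered length, the difference turned to 0.54 points and was called higher.

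*Klf4* was the 1 gene with a higher H3K9ac rank in KO, at 84.2 and 76.7 against 76.4 and 68.4 in WT. KO replicate 2 lay only just above WT replicate 1, and the mean difference was 8.06 points (exact permutation p = 0.33). Its H3K4me3 went the other way, with ranks of 63.0 and 70.8 in WT and of 57.5 and 57.2 in KO, but with peaks counted only where the summit lay in the window the H3K4me3 difference turned to 3.88 points and was called higher. Ranked by covered length, neither mark was called. The fold enrichments of H3K27ac in replicate 2 were 5.72 in WT and 9.80 in KO, and their ranks 73.2 and 81.0.

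The other genes had H3K9ac ranks that overlapped between the genotypes. *Cebpa* ranked at 85.2 and 74.4 in WT and at 74.5 and 69.0 in KO, and only the close values of WT replicate 2 and KO replicate 1 kept it from being called. *Cebpd* had the highest rank of any member, 98.4 in KO replicate 1, beside 88.8 in KO replicate 2 and 92.5 and 83.4 in WT. *Cebpb* ranked at 84.0 and 75.3 in WT and at 74.0 and 83.9 in KO. In each of these 3 genes, the WT replicates differed by more than the means of the genotypes. For *Egr1* the WT ranks were 59.8 and 84.1 and enclosed the KO ranks of 73.3 and 75.4. *Gfi1* followed the replicate and not the genotype, at 69.8 and 84.7 in WT and at 65.6 and 85.1 in KO. *Id2* ranked at 56.7 and 67.9 in WT and at 65.2 and 69.7 in KO. *Gfi1b* was the weakest member, at 51.4 and 54.3 in WT against 51.5 and 55.4 in KO, with fold enrichments from 3.37 to 5.36.

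For H3K4me3, *Cebpa* and *Klf4* were lower in KO, 2 of 10 beside 9.05% of all genes, and *Id2* was higher, 1 of 10 beside 9.49%. Among the 10247 genes with an H3K4me3 peak in every library, to which *Cebpb* and *Gfi1b* do not belong, the shares were 17.7% and 16.8%. *Cebpa* ranked at 84.4 and 81.6 in WT and at 81.6 and 78.2 in KO, with WT replicate 2 (81.621) and KO replicate 1 (81.612) almost level. Its fold enrichments, 10.6 and 6.63 in WT against 7.11 and 8.16 in KO, overlapped, and with a window from −2 to +2 kb or ranks of covered length it was not called either. *Id2* ranked at 53.4 and 56.3 in WT and at 73.3 and 69.3 in KO, a mean difference of 16.5 points (WT 54.8 ± 2.06, KO 71.3 ± 2.81, SD, n = 2, exact permutation p = 0.33). This was the largest difference among the 3 called genes, but it was 9.10 points with the outermost start site alone and 3.31 points, with overlap, by ranks of covered length. The median difference over the 10 genes was −1.77 points, beside −0.018 over the 10247 genes. The 10 include *Cebpb* and *Gfi1b*, with a rank of 0 where they had no peak, so the sets are not alike.

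*Cebpb* and *Gfi1b* had H3K9ac with little H3K4me3 within the promoter window. At *Cebpb*, H3K9ac peaks had fold enrichments of 14.9 and 11.7 in WT against 9.52 and 15.5 in KO, while H3K4me3 was listed at 4.82 in WT replicate 1, 3.83 in KO replicate 2 and not at all in WT replicate 2 and KO replicate 1. Just past the edge of the window, H3K4me3 peaks began 0.65 and 0.72 kb downstream in WT and 0.67 and 0.68 kb downstream in KO. The strongest H3K4me3 peaks from there to 3 kb had fold enrichments of 9.25 and 7.27 in WT against 5.05 and 9.41 in KO, so the low H3K4me3 of *Cebpb* holds for the window and not for the gene. H3K27ac in replicate 2 was 7.66 in WT and 7.89 in KO, with ranks of 84.8 and 73.4. H3K4me1 was 5.26 and 3.93, with ranks of 99.4 and 86.4. *Cebpb* therefore carried both acetylation marks and H3K4me1 in both genotypes. At *Gfi1b*, H3K4me3 was listed in KO replicate 2 alone, at 3.61. H3K27ac was 3.48 in WT and 6.10 in KO (ranks 59.1 and 64.9), and H3K4me1 4.50 and 2.99 (ranks 96.9 and 68.9).

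In view of the ranks, the length of the H3K9ac peaks that touched the promoter window was also compared, a measure chosen after the data were seen. It was shorter in KO for 5 of the 10 genes (20.2% of all genes were shorter) and longer for 0 of 10 (2.15% of all genes). Among the 10837 genes with a peak in every library, 38.1% were shorter and 3.84% longer, and the median difference was −0.16 kb, beside −0.48 kb over the 10 genes. The shorter genes were *Cebpb*, *Cebpd*, *Cebpe*, *Spi1* and *Gfi1*. The KO lists covered less sequence in all, and after division by the covered length of each list, *Cebpd* and *Cebpe* were shorter (4.96% of all genes) and *Spi1*, *Egr1* and *Id2* longer (16.97% of all genes).

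*Cebpd* showed the largest difference in length. Its peaks were 4.10 and 4.25 kb long in WT against 2.55 and 2.69 kb in KO (WT mean 4.18 ± 0.10, KO 2.62 ± 0.098, SD, n = 2, exact permutation p = 0.33). In all 4 libraries they began between −0.63 and −0.68 kb. They ended 3.43 and 3.62 kb downstream of the start site in WT and 1.91 and 2.01 kb downstream in KO. The KO lists held separate weaker peaks beyond that point, with fold enrichments of 2.62 and 2.91 in replicate 1 and of 3.14 and 7.73 in replicate 2. The summit enrichments near the start site were 19.8 and 14.5 in WT against 26.0 and 17.9 in KO, so a shorter peak came with a summit that was not lower. H3K4me3 at *Cebpd* was similar in length in the 4 libraries, from 2.40 to 2.77 kb. The H3K27ac peak of WT replicate 2 was 2.40 kb long and that of KO replicate 2 was 2.69 kb.

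For *Cebpe*, the lengths were 3.78 and 3.89 kb in WT against 2.72 and 3.20 kb in KO. *Gfi1*, with 4.98 and 5.73 kb in WT against 4.30 and 4.56 kb in KO, and *Cebpb*, with 5.14 and 5.07 kb in WT against 3.75 and 4.93 kb in KO, also did not overlap. *Spi1* had the longest peaks, 8.50 and 8.51 kb in WT against 7.07 and 8.49 kb in KO, summed over its start sites. Only KO replicate 1 was clearly apart there, and without it the difference was −0.015 kb.

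**Figure D2:**
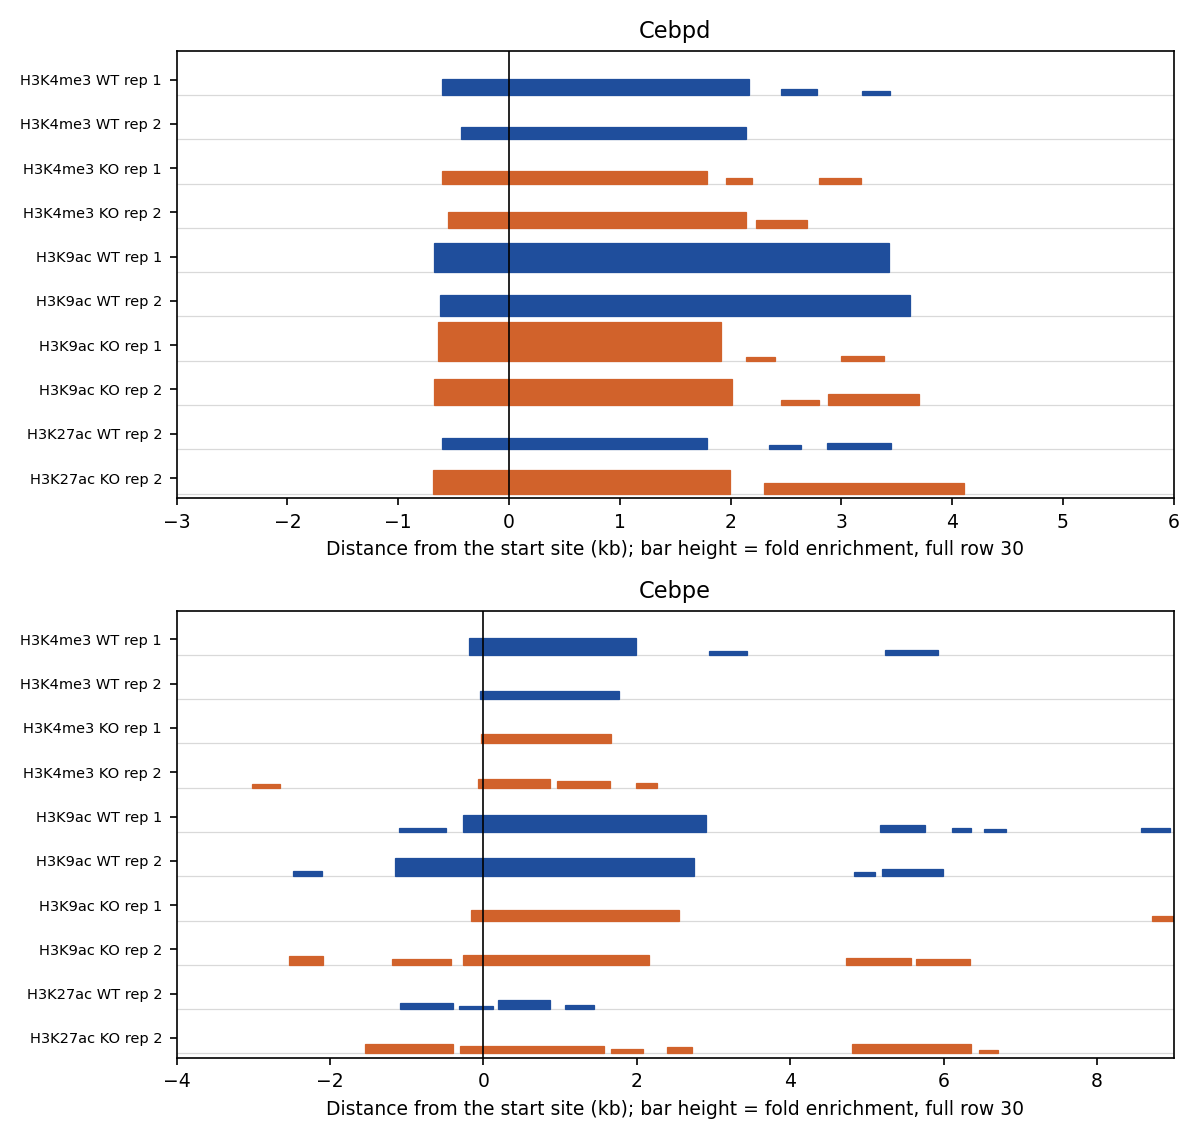
Peaks around *Cebpd* (top) and *Cebpe* (bottom) in the H3K4me3 and H3K9ac libraries and in replicate 2 of H3K27ac, by distance from the start site in kb along the direction of transcription (x axis), with WT in blue, KO in orange and the bar height giving the fold enrichment (a full row is 30). The single H3K9ac peak of *Cebpd* ends at 3.43 and 3.62 kb in WT and at 1.91 and 2.01 kb in KO, where further separate peaks follow.

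Distal marks were taken as peak bases within 50 kb of the gene and outside the promoter window of every protein-coding gene. H3K9ac covered less of this space in both KO libraries than in either WT library for 6 of 10 genes (31.0% of all genes) and more for 0 of 10 (1.71% of all genes). Of the 13501 genes with distal H3K9ac in every library, 44.99% were lower and 2.13% higher. The median difference was −1.001 kb over the 10 genes, all of which had a lower mean in KO, and −0.47 kb over the 13501 genes. This space includes bases of promoter peaks that reach beyond the window, as at *Cebpd*, so it is not independent of the peak lengths above. Divided by the covered length of each list, 3 of 10 remained lower (*Cebpb*, *Cebpd* and *Cebpe*, 17.5% of all genes) and *Egr1* was higher (6.92% of all genes).

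*Cebpb* had the most distal H3K9ac, 13.04 and 16.1 kb in WT against 7.73 and 11.1 kb in KO, a mean difference of −5.16 kb (WT 14.6 ± 2.13, KO 9.39 ± 2.35, SD, n = 2, exact permutation p = 0.33). *Cebpe* had 5.57 and 6.22 kb in WT against 3.15 and 5.11 kb in KO, and *Cebpa* 4.95 and 4.90 kb in WT against 3.67 and 4.40 kb in KO. *Id2* had 3.47 and 3.60 kb in WT against 1.65 and 3.28 kb in KO. In each of these genes KO replicate 1, the library with the least H3K9ac in all, was the lowest. *Cebpd* had 2.04 and 1.99 kb in WT against 0.941 and 1.55 kb in KO. *Klf4* had 2.20 and 1.70 kb in WT against 1.69 and 1.52 kb in KO, with WT replicate 2 and KO replicate 1 almost level. The call was lost for *Cebpa* and *Klf4* at q-values of at most 0.01, for *Cebpa* with equal peak numbers and for *Id2* with a flank of 100 kb. The other 4 genes overlapped between the genotypes. *Spi1* had 10.6 and 13.3 kb in WT against 9.25 and 10.8 kb in KO, and *Gfi1b* 1.11 and 3.41 kb against 1.01 and 1.64 kb. *Gfi1* had 5.62 and 8.20 kb in WT against 5.67 and 5.09 kb in KO, and *Egr1* 3.18 and 3.95 kb against 3.24 and 3.42 kb.

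**Figure D3:**
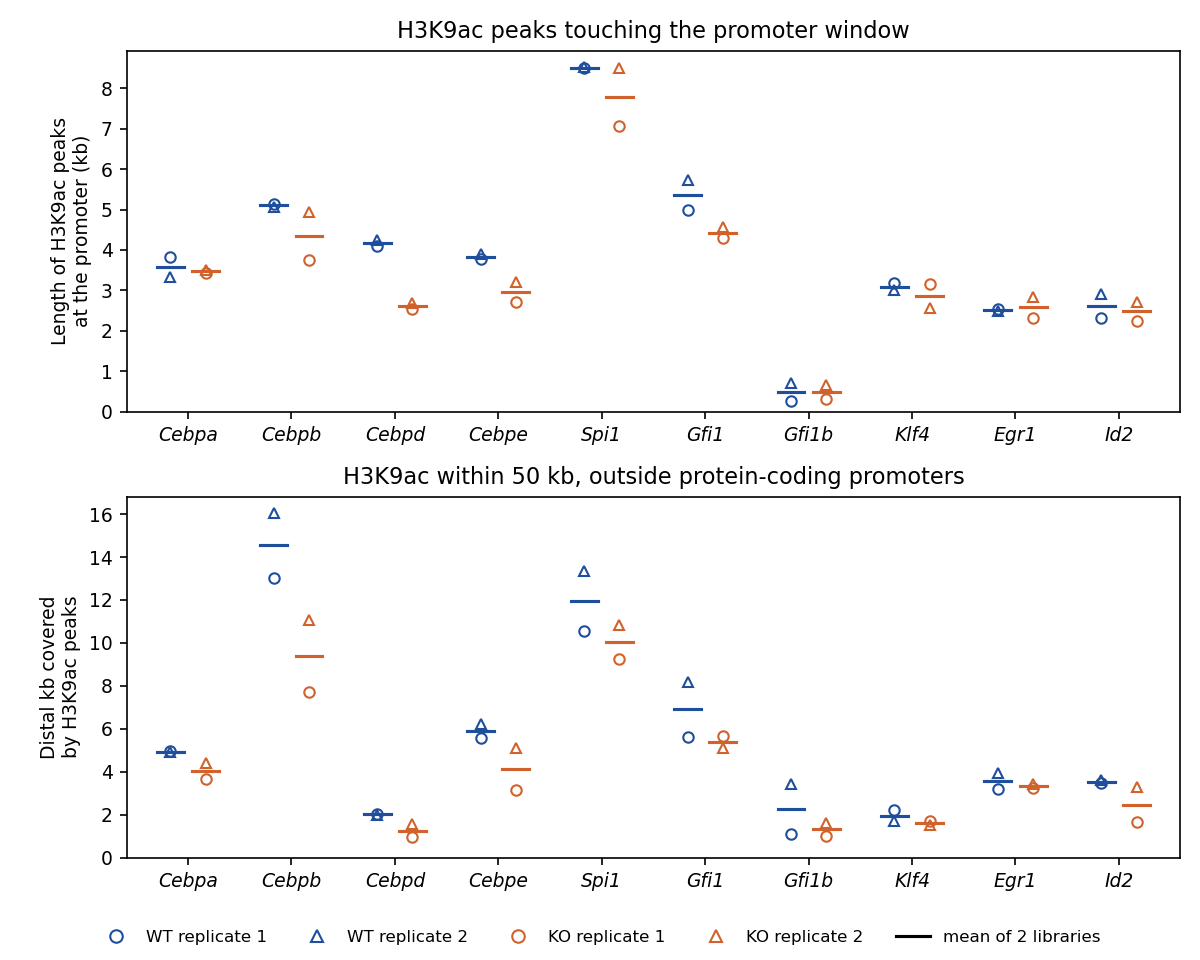
Length of the H3K9ac peaks at the promoter (top, kb) and distal H3K9ac within 50 kb of the gene (bottom, kb covered by peaks) for the 10 genes, with WT in blue, KO in orange, circles for replicate 1, triangles for replicate 2 and bars for the mean of 2 libraries. *Cebpd* shows the genotypes well apart in length, and *Cebpb* has the most distal H3K9ac, from 7.73 kb in KO to 16.1 kb in WT.

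Peaks that touched no protein-coding promoter were merged over the 12 lists of H3K4me3, H3K9ac and replicate 2 of H3K27ac and H3K4me1, which gave 189 distal regions at the 10 genes. H3K27ac was found in both genotypes in 32, in WT alone in 6 and in KO alone in 31. The KO H3K27ac list covered 35.8 Mb and the WT list 19.7 Mb, and the part of this gap in the counts was not tested. Distal regions were merged for the 10 genes alone, so the counts of regions have no share over all genes beside them. H3K9ac was found in all 4 libraries in 25 regions, of which 17 also had H3K27ac in both genotypes. *Cebpb* had 7 of these 17, *Gfi1* 3, *Cebpa* and *Spi1* 2 each, *Gfi1b*, *Egr1* and *Id2* 1 each, and *Cebpd*, *Cebpe* and *Klf4* 0. These counts leave out every peak that touches a promoter. The 0 of *Cebpd* depends on this, since its long WT promoter peaks reached into its region with H3K27ac in both genotypes. Peaks at the upstream *Spi1* start site were left out for the same reason. The fold enrichments of elements and distal regions given below were not ranked, and those of different lists are not on one scale. They show where peaks were listed, and differences in size between WT and KO were not tested.

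The element about 37 kb downstream of *Cebpa*, an enhancer known to drive this gene in myeloid progenitors, is the first of the sequences of elements shown above. H3K9ac was listed there at 3.62 and 6.30 in WT and at 3.25 and 3.10 in KO. H3K27ac was 5.49 in WT and 3.22 in KO, H3K4me1 was 4.50 and 3.57, and H3K4me3 was absent from all 4 lists. The element thus carried H3K4me1 with both acetylation marks in both genotypes. It also held the strongest distal H3K27ac of *Cebpa* in WT. In KO the strongest lay closer, 8.07 kb downstream (chr7:35125893-35128859, intergenic), where H3K27ac was 4.96 in WT and 8.69 in KO and H3K9ac was present in all 4 libraries.

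For *Spi1*, the upstream regulatory element lies 14 kb before the principal start site. Counted from the most upstream GENCODE start site, no peak of any of the 16 lists lay within 1 kb of −14 kb. Counted from the principal start site, which was done after the data were seen, the window falls on that upstream start site itself. There H3K9ac was 11.9 and 19.5 in WT against 8.05 and 15.7 in KO, and H3K27ac 9.44 in WT and 19.0 in KO. H3K4me1 was 3.39 and 4.96, and H3K4me3 was listed at 3.78 in WT replicate 1 and 4.14 in KO replicate 2. The strongest promoter H3K4me3 of the gene lay downstream of the principal start site, in peaks that began 0.38 and 0.58 kb past it in WT and 0.74 and 0.22 kb past it in KO, with fold enrichments of 8.87 and 8.44 in WT against 7.18 and 10.7 in KO. The H3K9ac peak of each library there began between −14.4 and −14.6 kb and ended between −9.60 and −10.9 kb. The region with the strongest distal H3K27ac, at −5.45 kb within the longer transcripts (chr2:91089008-91092294, mostly intronic), had H3K27ac of 8.08 in WT and 13.3 in KO, H3K4me1 of 7.75 and 6.91, and no H3K4me3.

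**Figure D4:**
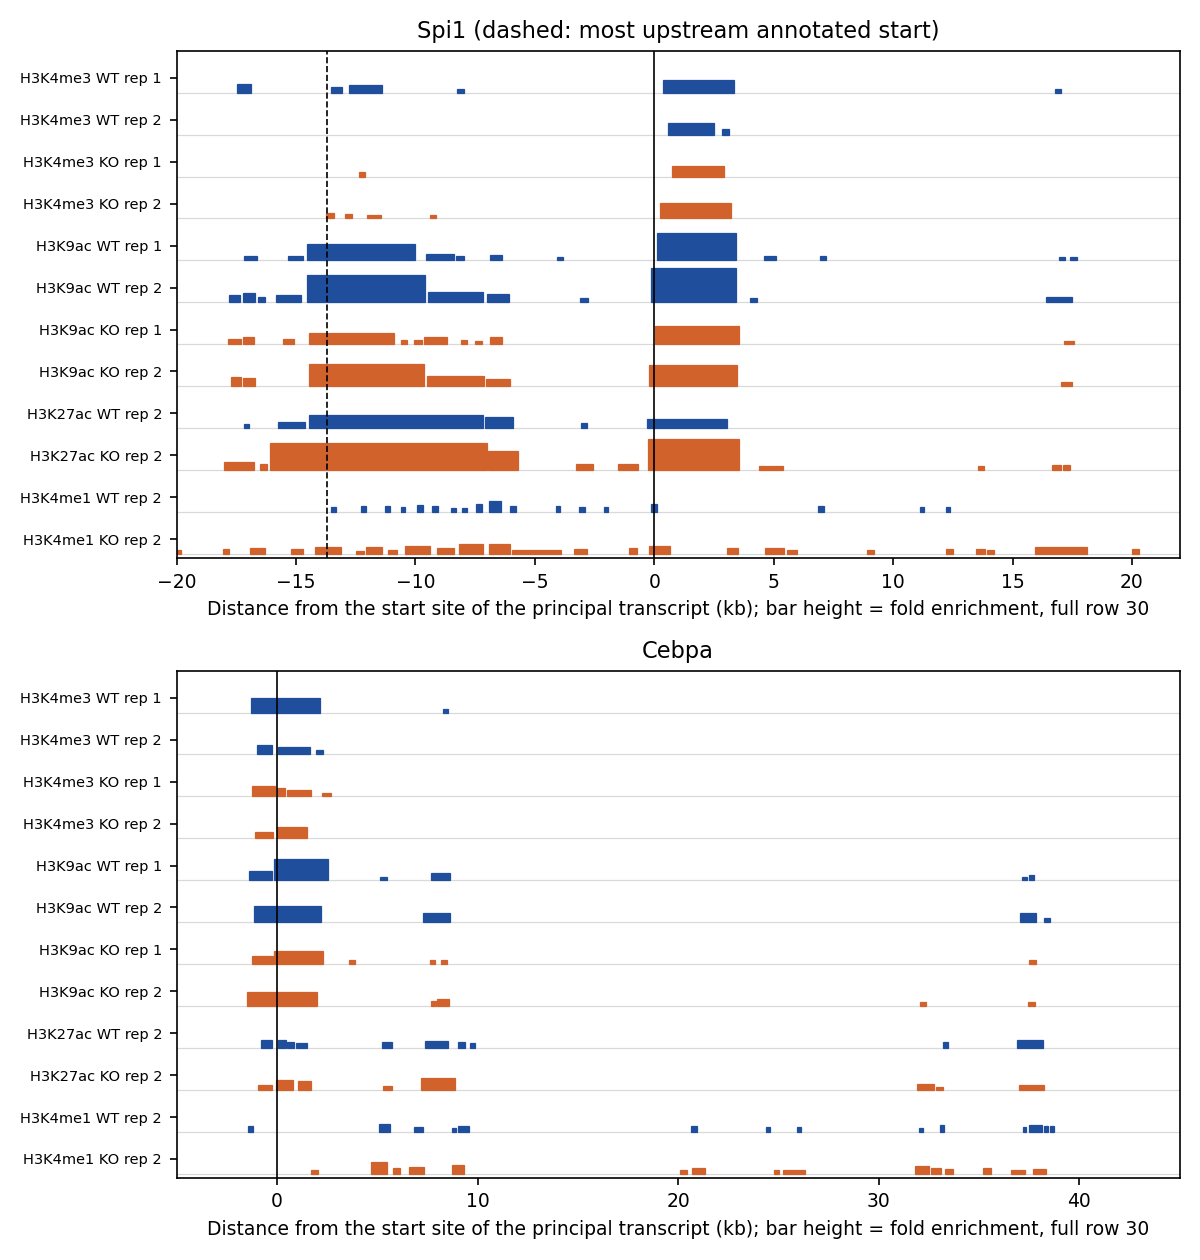
Peaks around *Spi1* (top) and *Cebpa* (bottom) in the H3K4me3 and H3K9ac libraries and in replicate 2 of H3K27ac and H3K4me1, by distance from the start site of the principal transcript in kb (x axis, solid line at 0; dashed line, most upstream *Spi1* start site), with WT in blue, KO in orange and the bar height giving the fold enrichment (a full row is 30). Wide H3K9ac and H3K27ac peaks lie at the upstream *Spi1* place, which has little H3K4me3, and smaller ones lie 8.07 and 37.6 kb downstream of *Cebpa*.

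The window 6 kb downstream of *Cebpe* held H3K9ac at 4.80 and 5.04 in WT and at 4.49 in KO replicate 2, with none in KO replicate 1. H3K27ac and H3K4me1 were listed in KO replicate 2 alone, at 6.14 and 4.49. The strongest distal H3K27ac in WT lay at −41.8 kb in *Slc7a8* (chr14:54753462-54754433), at 4.82 in WT and 5.80 in KO. For *Gfi1*, no peak of the 16 lists lay within 1 kb of −35 kb, but the neighbouring *Evi5* gene held a region at −23.0 kb (chr5:107748299-107749730) with H3K9ac of 2.84 and 10.8 in WT against 4.29 and 7.22 in KO. H3K27ac in this region was 6.71 in WT and 6.15 in KO. A second region at −24.6 kb (chr5:107749829-107751499) had H3K27ac of 3.62 in WT and 9.04 in KO. No list had a peak within 1 kb of a point 17 kb downstream of *Gfi1b*, while a region 4.04 kb downstream inside the gene (chr2:28616917-28618975) had H3K27ac of 3.10 in WT and 7.24 in KO and H3K4me1 of 2.64 and 4.13.

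Upstream of *Egr1*, at −3.68 kb, a region 5179 bp wide had more H3K9ac than the promoter. The fold enrichments there were 10.9 and 22.9 in WT against 11.999 and 15.8 in KO, and those of the promoter in the same libraries were 6.60 and 14.8 in WT against 9.32 and 12.1 in KO. The upstream region was thus higher in 4 of 4 libraries. It had H3K27ac of 9.04 in WT and 21.7 in KO, H3K4me1 of 6.53 and 6.68, and no H3K4me3 peak clear of promoters in any library. *Cebpb* had a region of like width, 5152 bp at −30.9 kb (chr2:167655401-167660552, inside *Tmem189*), with H3K9ac of 12.002 and 15.5 in WT against 6.51 and 11.9 in KO. H3K27ac there was 4.90 in WT and 12.2 in KO, and no H3K4me3 peak clear of promoters was listed. Peaks that touched a protein-coding promoter were left out of these values. Of those, H3K4me3 peaks overlapped the end of the region nearest *Cebpb*, at 12.8 in WT replicate 1 and at 6.10 and 6.39 in KO. H3K9ac peaks left out in this way overlapped the same end, at 15.5 and 22.4 in WT and at 20.8 in KO replicate 1. The strongest distal region of *Id2*, at −2.67 kb (chr12:25098278-25101338), carried H3K4me3 in all 4 libraries, at 5.68 and 6.59 in WT against 4.23 and 5.36 in KO. *Klf4* had 5 distal regions and *Cebpd* 4, the lowest numbers among the 10 genes. No list had a distal H3K4me1 peak at *Klf4*, and none of its regions had H3K27ac in both genotypes. Its 1 region with H3K27ac lay 1.84 kb downstream inside the gene (chr4:55530352-55530898), at 3.71 in WT and with no peak in KO.

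The strongest distal H3K27ac of *Cebpd* in both genotypes lay 3.06 kb downstream (chr16:15889247-15891437), at 4.26 in WT and 7.16 in KO. This is the place of the separate KO H3K9ac peaks described above, whereas in WT the long promoter peak reached into it. The *Cebpb* region with the strongest H3K27ac in WT lay 25.5 kb downstream (chr2:167712938-167715908, intergenic), at 5.49 in WT and 4.70 in KO, with H3K9ac in WT replicate 2 alone. For *Cebpe* the strongest in KO lay at −44.4 kb, also in *Slc7a8* (chr14:54756080-54757155), at 4.59 in WT and 6.38 in KO. For *Gfi1b* the strongest in WT lay 31.3 kb downstream (chr2:28590026-28591364, intergenic), at 5.27 in WT and 5.51 in KO.

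The 24 other genes of myeloid transcription control gave H3K9ac ranks lower in KO for 4 (8.44% of all genes) and higher for 4 (8.41%). Among the 10837 genes with a peak in every library, to which all 24 belong, 14.9% were lower and 16.1% higher. Among the lower ones were *Maf* (64.7 and 65.3 in WT, 50.4 and 57.0 in KO) and *Irf8* (53.4 and 58.9 in WT, 52.8 and 48.9 in KO). *Egr2*, an early response factor related to *Egr1*, ranked at 58.1 and 56.6 in WT and at 70.3 and 88.6 in KO. *Rara*, the retinoic acid receptor, ranked at 68.5 and 79.0 in WT and at 84.1 and 92.5 in KO, and *Nr4a1* at 78.2 and 77.5 in WT against 85.2 and 82.1 in KO. The H3K9ac peaks at the promoter were shorter in KO for 9 of the 24 (20.2% of all genes) and longer for 1 (2.15%). Among the same 10837 genes, 38.1% were shorter and 3.84% longer. Distal H3K9ac was lower for 10 of the 24 (31.0%) and higher for 0 (1.71%). Of the 13501 genes with distal H3K9ac in every library, 44.99% were lower and 2.13% higher. The counts of the 24 are thus near the background of genes that carry the mark. The related genes thus differed in both directions in rank, as the 10 genes did.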

How the data were processed

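Per the labels and the methods of the study, reads were mapped to mm10 by BWA and peak calling was done by MACS2, library by library. The deposited columns used are the fold enrichment over background (a ratio), the summit position, and −log10 values of p and q. The deposited score, which follows the p-value, was not used. The study states a q-value of 0.05, while the deposited lists reach down to a p-value of 0.01. The authors left out 1 H3K27ac and 1 H3K4me1 replicate without naming them, and here replicate 1 of both marks was not used for comparisons. The input libraries were not analysed here.

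Fold enrichments of different lists are not on one scale, so genes were ranked within their list. A peak counted when it overlapped a window by 1 bp. Calls required that the 2 KO and 2 WT libraries did not overlap, and each count of genes called is given with its share over 21938 protein-coding genes of GENCODE M21. The counts of distal regions have no such share. The members, the gene lists and the enhancer distances (taken from general knowledge) were chosen with earlier results of these data known. All 10 members are named, with the strongest distal H3K27ac region of each in WT and in KO and at most 3 of the 24 other genes in each direction, of which 1 is not reported here. Peak length and the second *Spi1* distance were chosen after seeing the data. Alternatives were stricter q-values, equal peak numbers, other windows, flanks and start sites, other measures, each library left out and the replicate block. RefSeq promoters equalled the genome sequence in every row. Python 3.11.15, numpy 2.4.6, scipy 1.17.1 and matplotlib 3.10.9 were used. On simulated data, promoter values and coverage equalled those of bedtools 2.31.1 for 600 of 600 genes.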

Additional observations from a re-analysis of the deposited data

How the results depend on the processing

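With only peaks at q-values of at most 0.05 or 0.01, or equal peak numbers per library, the called genes for promoter H3K9ac and H3K4me3 rank were the same. Ranked by covered length, no member was lower for either mark (0, beside 7.47% and 7.46% of all genes), 4 were higher for H3K9ac (13.1%) and 0 for H3K4me3 (8.41%), and the *Spi1* difference turned to 0.54. With the outermost start site alone, 1 was lower for H3K9ac (*Cebpe*, 7.68%). For H3K4me3, 1 was lower without ranking (*Klf4*, 7.44%), with a window from −2 to +2 kb (*Klf4*, 9.18%) and with the summit in the window (*Cebpa*, 8.93%), where 2 were higher (9.25%) and *Klf4* turned to 3.88. Leaving out 1 library gave 3 to 4 lower (17.2 to 19.3% of all genes) and 2 to 4 higher (17.1 to 18.2%) for H3K9ac, 3 to 5 lower (16.7 to 19.9%) and 1 to 3 higher (17.9 to 19.1%) for H3K4me3, 6 to 10 lower (37.1 to 51.0%) and 0 to 1 higher (5.89 to 8.63%) for distal H3K9ac, and 6 to 7 shorter (25.4 to 35.7%) and 0 to 1 longer (5.58 to 10.2%) peaks. The shares of all genes thus rose as well. The 10 came without WT replicate 1, the 5 without WT replicate 2, the 4 lower for H3K9ac without WT or KO replicate 2, and the 4 higher without WT replicate 2 or KO replicate 1.

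Divided by the covered length of each list, distal H3K9ac was lower for 3 (17.5%) and higher for 1 (6.92%), and *Cebpa* (0.00050 kb per Mb) and *Klf4* (0.0010) turned. Peak length was then shorter for 2 (4.96%) and longer for 3 (16.97%), and *Cebpb* (0.0066), *Gfi1* (0.0039) and *Spi1* (0.036) turned. With both replicates required for every mark, the members with both acetylation marks were 1 in WT (10.9% of all genes) and 0 in KO (0.333%), and those with H3K9ac alone 7 (35.9%) and 8 (47.1%). With replicate 1 alone they were 1 (11.6%) and 0 (0.351%), and 8 (40.8%) and 8 (48.1%). These settings use the nearly empty replicate 1 of H3K27ac. For *Spi1* at −14 kb, H3K9ac in WT replicate 2 was 0 from the most upstream start site and 19.5 from the principal one.

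The labels do not say what the replicate numbers share. With the replicate block, H3K9ac rank was lower for 3 (13.9% of all genes; *Cebpa* added) and higher for 4 (13.1%; *Cebpd*, *Gfi1b* and *Id2* added), and H3K4me3 rank lower for 3 (13.1%; *Cebpe* added) and higher for 1 (13.9%). Distal H3K9ac was lower for 8 (44.3%; *Spi1* and *Gfi1b* added) and higher for 0 (3.38%), and peak length shorter for 7 (28.1%; *Klf4* and *Id2* added) and longer for 0 (3.79%). Same-numbered libraries deviated together with a correlation of 0.12 for H3K9ac rank, −0.00090 for H3K4me3 rank and 0.64 for distal H3K9ac. The other alternatives left each count within 1.5 times its value. With no counts, the depth sets no limit that could be given.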
